A study of Mus musculus with 6 samples.

Results

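The genes described here are 9 mouse genes that detect foreign or abnormal RNA ahead of interferon production, or that act directly beside the detectors. They were chosen by name, with symbols taken from the GENCODE M21 annotation, out of 54532 gene IDs in the deposited table. They comprise the RNA receptors Ddx58, Ifih1, Dhx58 and Tlr3, the Z-form nucleic acid sensor Zbp1, the kinase Eif2ak2, the RNA editor Adar, the adaptor Mavs and the transcription factor Irf3. All 9 were found in the table, and 8 of them reached the mean of 0.5 FPKM (sequenced fragments normalised to gene length and library size) that was required for testing. RNA was sequenced from embryonic (E12.5) mouse heart ventricles, with 3 libraries from a conditional knockout of LSD1 (LSD1 CKO, also labelled LSD1-KO) and 3 control libraries (CTL). LSD1 is the histone demethylase encoded by Kdm1a, which removes methyl groups from lysine 4 of histone H3. The labels give neither the Cre line, the alleles of the controls nor the mouse strain, and do not say whether samples of a group were separate embryos, so the p-values below describe only how much the sequenced samples varied, and part of that may be technical.

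RIG-I (the product of Ddx58) and MDA5 (Ifih1) are cytosolic helicases that bind double-stranded RNA, RIG-I preferring ends with a triphosphate and MDA5 long duplexes. LGP2 (Dhx58) lacks the signalling domains of both and modulates them. Bound RIG-I and MDA5 act on MAVS at mitochondria, and TLR3 signals from endosomes through another adaptor, TRIF. Both routes lead to phosphorylation of IRF3, which enters the nucleus and turns on interferon genes. PKR (Eif2ak2) blocks translation on binding double-stranded RNA, ADAR1 (Adar) edits adenosine to inosine and so keeps the cell's own duplexes from being detected, and ZBP1 binds left-handed Z-RNA and can trigger necroptosis. Several of these sensors are themselves induced by interferon, through promoter elements with paired GAAA repeats, whereas IRF3 and MAVS are produced constitutively in most cells.

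The start regions of the sensors are shown because interferon-responsive elements are built from GAAA pairs near gene starts. RefSeq start regions (250 bases before to 50 bases after an annotated start, build GRCm38.p6) were available for 7 of the 9 genes, all but Dhx58 and Zbp1. Both strands were searched for GAAANNGAAA, the core of the interferon-stimulated response element, and for GAAANGAAA, a shorter spacing added after the sequences had been read. The motifs were counted separately, and no match of one overlapped a match of the other in the sequences printed. Among 32851 start regions of the same length, 3.443% held the first motif, 3.166% the second and 6.274% at least 1 of them. A match was found in 4 of the 7 genes, and capitals mark it in the gene's own strand. Ifih1, Eif2ak2 and Ddx58 held the first motif, and Adar held only the second, added later, in 1 of its 3 starts. The count is by gene and the shares are by start region, so they are not directly comparable. The region of Ifih1 lies at chr2:62646206-62646505 on the minus strand, that of Eif2ak2 at chr17:78882523-78882822 on the minus strand, that of Ddx58 at chr4:40239776-40240075 on the minus strand, and the last of 3 annotated starts of Adar at chr3:89730468-89730767 on the plus strand.
Ifih1: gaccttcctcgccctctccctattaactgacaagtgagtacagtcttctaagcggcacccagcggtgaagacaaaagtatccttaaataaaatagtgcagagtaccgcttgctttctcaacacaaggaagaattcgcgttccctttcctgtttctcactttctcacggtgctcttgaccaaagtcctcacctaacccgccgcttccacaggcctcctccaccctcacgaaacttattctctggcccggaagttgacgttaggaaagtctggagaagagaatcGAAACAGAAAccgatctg
Eif2ak2: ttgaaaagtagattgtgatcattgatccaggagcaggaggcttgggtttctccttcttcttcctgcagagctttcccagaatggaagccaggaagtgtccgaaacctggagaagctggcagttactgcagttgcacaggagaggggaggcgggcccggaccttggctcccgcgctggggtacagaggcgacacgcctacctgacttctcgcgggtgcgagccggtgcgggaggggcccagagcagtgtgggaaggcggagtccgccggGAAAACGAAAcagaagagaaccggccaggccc
Ddx58: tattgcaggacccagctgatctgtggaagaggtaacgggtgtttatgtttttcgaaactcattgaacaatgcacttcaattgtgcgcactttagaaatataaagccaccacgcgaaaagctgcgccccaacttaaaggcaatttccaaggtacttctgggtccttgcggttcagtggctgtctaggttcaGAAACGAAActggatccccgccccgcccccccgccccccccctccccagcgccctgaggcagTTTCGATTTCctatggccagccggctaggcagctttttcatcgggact
Adar: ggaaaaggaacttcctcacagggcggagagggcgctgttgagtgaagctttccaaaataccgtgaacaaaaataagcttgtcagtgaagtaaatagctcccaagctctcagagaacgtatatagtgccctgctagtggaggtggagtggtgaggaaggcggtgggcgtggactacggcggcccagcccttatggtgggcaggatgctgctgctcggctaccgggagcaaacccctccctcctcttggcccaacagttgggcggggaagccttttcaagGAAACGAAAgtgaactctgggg
In Ifih1 the match ran from base 33 to base 42 of the transcript and in Eif2ak2 from base 19 to base 28. Ddx58 held a GAAANGAAA match upstream, from base -60 to base -52, and a GAAANNGAAA match on the other strand from base 3 to base 12. In Adar the GAAANGAAA match lay at bases 29 to 37 of the last start, and the other 2 Adar starts held neither motif. Mavs, Irf3 and Tlr3 held neither motif in these windows. A match is a run of letters and was not tested for binding.

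Whole reads recovered from the FPKM values summed to between 17898946 and 20076028 per library. Kdm1a, the targeted gene, stood at 10.7, 11.8 and 10.96 FPKM in LSD1 CKO replicates 1, 2 and 3 and at 29.99, 29.7 and 22.8 FPKM in control replicates 1, 2 and 3 (log2 change -1.22, SE 0.11, limma adjusted p = 0.00274). Among 12 cardiomyocyte markers, all were tested, 0 were called by limma (0 at an unadjusted p under 0.05, 0 by voom), and their summed level was 16106 to 17671 FPKM in LSD1 CKO libraries, against 14788 to 19184 FPKM in control libraries. Libraries differed in sex-linked RNA. LSD1 CKO replicate 3 had 12.1 FPKM of Xist and 0 FPKM of the Y-linked gene Ddx3y, and LSD1 CKO replicate 1 had 1.11 FPKM of Xist together with 14.3 FPKM of Ddx3y, whereas the other 4 libraries had at most 0.0125 FPKM of Xist. Control replicate 3 stood apart on the second principal component (-20.7, against -5.68 to 10.98 in the others) and had the highest mitochondrially encoded share, 9.03%. Over 14149 tested genes, 1.91% were called higher and 0.466% lower in the knockout, 2.37% in all (limma on log2(FPKM + 1), Benjamini-Hochberg adjusted p under 0.05).

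Of the RIG-I-like receptors, 2 rose in the LSD1 CKO ventricles and the other, Ifih1, did not pass the test. Ddx58 rose 1.75-fold and Dhx58 rose 3.82-fold by mean FPKM. Ddx58 (mm10 chromosome 4, bases 40203773 to 40239828, minus strand) stood at 3.09, 4.35 and 3.73 FPKM in LSD1 CKO replicates 1, 2 and 3, against 1.96, 2.16 and 2.27 FPKM in control replicates 1, 2 and 3. Each LSD1 CKO library lay above each control library, with replicate 2 highest. The log2 change on log2(FPKM + 1) was 0.59 (SE 0.11, 95% interval 0.33 to 0.84, limma adjusted p = 0.0402). These values rest on 394, 595 and 470 reads in LSD1 CKO libraries and 255, 271 and 309 reads in control libraries.

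Dhx58 (chromosome 11, bases 100694884 to 100704271, minus strand) stood at 0.863, 0.992 and 0.804 FPKM in LSD1 CKO replicates 1, 2 and 3, against 0.282, 0.240 and 0.174 FPKM in control replicates 1, 2 and 3. The groups were far apart relative to their spread, at 0.886 ± 0.0962 FPKM in LSD1 CKO and 0.232 ± 0.0542 FPKM in control ventricles (SD, n = 3 each). The log2 change was 0.61 (SE 0.10, 95% interval 0.37 to 0.86, limma adjusted p = 0.0285), a scale on which the added 1 FPKM compresses changes of low genes. With an added 0.1 FPKM the log2 change was 1.58 (adjusted p = 0.0419), and with voom on recovered reads it was 1.93 (adjusted p = 0.00557). Only 51, 63 and 47 reads in LSD1 CKO libraries and 17, 14 and 11 reads in control libraries lay behind it. The control mean was below the 0.5 FPKM that testing required, so Dhx58 was tested only because its level was high in the knockout. Without that filter Dhx58 was called (limma adjusted p = 0.0356) and Ddx58 was not (adjusted p = 0.130). The log2 changes were the same in that fit, while the SE was 0.073 for Dhx58 and 0.117 for Ddx58. The call of Dhx58 there rests on a smaller variance estimate and does not lift the limit set by the filter.

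Neither call held in every fit on 5 libraries. Ddx58 stayed called only without LSD1 CKO replicate 1 (adjusted p = 0.0348), and its adjusted p was 0.132, 0.110 and 0.0596 without control replicates 1, 2 and 3 and 0.123 and 0.136 without LSD1 CKO replicates 2 and 3. Dhx58 was not called in any of these 6 fits, with an adjusted p between 0.0563 (without control replicate 3) and 0.123 (without LSD1 CKO replicate 2). The log2 changes stayed between 0.49 and 0.69 for Ddx58 and between 0.57 and 0.65 for Dhx58. With a sex score from Xist and Y-linked RNA as a covariate, neither was called (adjusted p = 0.149 for Ddx58 and 0.0906 for Dhx58) at log2 changes of 0.60 and 0.66.

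Ifih1 (chromosome 2, bases 62595798 to 62646255, minus strand), which encodes MDA5, stood at 0.678, 1.23 and 0.645 FPKM in LSD1 CKO replicates 1, 2 and 3, against 0.378, 0.523 and 0.381 FPKM in control replicates 1, 2 and 3. All LSD1 CKO libraries lay above all control libraries, and replicate 2 of the knockout was far above its other two. The mean was 1.99 times the control mean, but the gene did not pass (log2 change 0.36, SE 0.14, 95% interval 0.03 to 0.69, limma adjusted p = 0.272), and without LSD1 CKO replicate 2 the log2 change was 0.22. Its control mean of 0.427 FPKM was also below the level required for testing, and its log2 change was 0.81 with an added 0.1 FPKM.

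**Figure D1:**
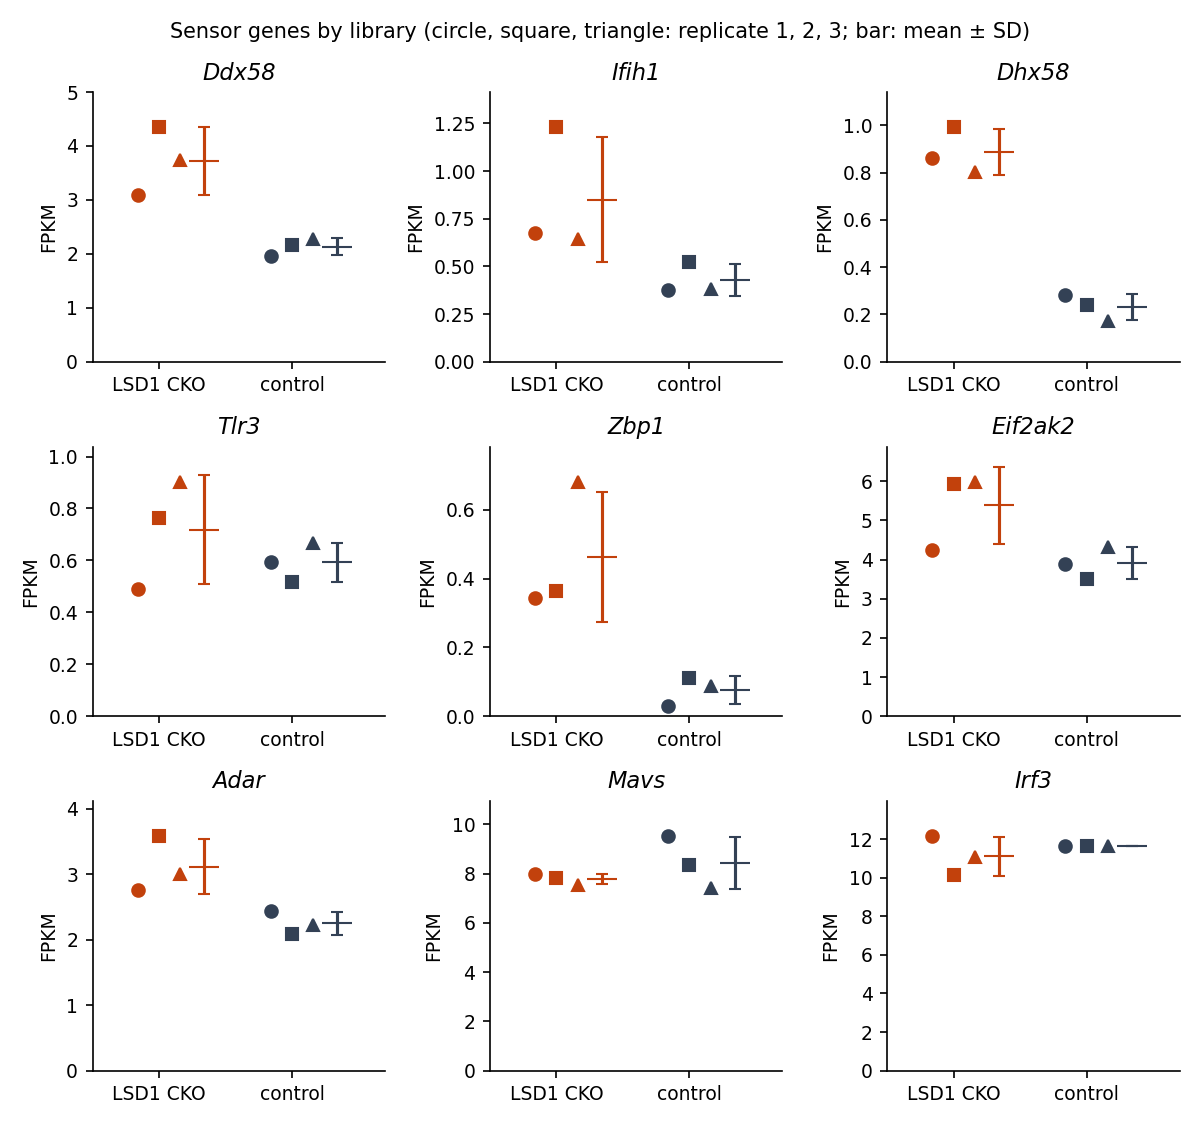
FPKM of the 9 sensor genes in each library, with LSD1 CKO at left and control at right; marker shape gives the replicate and the bar beside each group the mean ± SD (n = 3). Ddx58, Ifih1, Dhx58, Adar and Zbp1 have every LSD1 CKO library above every control library, and Tlr3, Eif2ak2, Mavs and Irf3 overlap.

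The remaining sensors, TLR3 and ZBP1, were at low levels. Tlr3 (chromosome 8, bases 45395665 to 45411080, minus strand) stood at 0.489, 0.762 and 0.903 FPKM in LSD1 CKO replicates 1, 2 and 3, against 0.593, 0.518 and 0.667 FPKM in control replicates 1, 2 and 3. The groups overlapped, with LSD1 CKO replicate 1 the lowest of all 6 libraries, and the change did not pass (log2 change 0.10, 95% interval -0.18 to 0.39, limma adjusted p = 0.735).

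Zbp1 (chromosome 2, bases 173206612 to 173218923, minus strand) had a mean of 0.270 FPKM over the 6 libraries and was not tested. Its level was 0.345, 0.365 and 0.682 FPKM in LSD1 CKO replicates 1, 2 and 3, against 0.0307, 0.111 and 0.0881 FPKM in control replicates 1, 2 and 3. In reads this was 22, 25 and 43 in the knockout and 2, 7 and 6 in the controls, so that every LSD1 CKO library lay above every control library and control replicate 1 was below a floor of 3 reads. Summed over libraries, 90 reads in LSD1 CKO stood against 15 reads in control, a ratio of 6.02 after scaling for library size, with an exact 95% interval of 3.46 to 11.2 that covers counting error only. A two-sided exact permutation test of mean FPKM gave p = 0.1, the smallest that 3 against 3 libraries allow. In a limma fit with no filter the log2 change was 0.44 (SE 0.10, adjusted p = 0.158), where 0.424% of 25956 genes were called higher.

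The RNA-binding effectors, Eif2ak2 and Adar, had higher mean levels in the knockout, and neither passed the test. Eif2ak2 (chromosome 17, bases 78852564 to 78882573, minus strand) stood at 4.24, 5.93 and 5.99 FPKM in LSD1 CKO replicates 1, 2 and 3, against 3.88, 3.51 and 4.33 FPKM in control replicates 1, 2 and 3. LSD1 CKO replicate 1 lay within the control range while the other two lay above it (log2 change 0.37, SE 0.13, 95% interval 0.08 to 0.67, limma adjusted p = 0.207). Without LSD1 CKO replicate 1 the log2 change was 0.51 (adjusted p = 0.0777).

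Adar (chromosome 3, bases 89715022 to 89753446, plus strand) stood at 2.76, 3.58 and 3.0 FPKM in LSD1 CKO replicates 1, 2 and 3, against 2.44, 2.08 and 2.22 FPKM in control replicates 1, 2 and 3. The groups did not overlap, although the mean was only 1.39 times the control mean (log2 change 0.34, SE 0.10, 95% interval 0.11 to 0.56, limma adjusted p = 0.142). Exons of Chrnb2 cover 16.8% of its exon bases, and since the library kit does not mark strand, reads there cannot be assigned to one gene. FPKM is summed over the gene, so the interferon-inducible and constitutive ADAR1 isoforms were not separated. For the other 8 sensor genes at most 7.32% of exon bases lay under another gene.

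Neither the adaptor nor the transcription factor passed the test. Mavs (chromosome 2, bases 131234063 to 131248025, plus strand) stood at 7.97, 7.83 and 7.55 FPKM in LSD1 CKO replicates 1, 2 and 3, against 9.52, 8.35 and 7.403 FPKM in control replicates 1, 2 and 3. The knockout libraries lay close together inside the control range (log2 change -0.10, 95% interval -0.31 to 0.11, limma adjusted p = 0.652). Irf3 (chromosome 7, bases 44997648 to 45002848, plus strand) stood at 12.2, 10.1 and 11.1 FPKM in LSD1 CKO replicates 1, 2 and 3, against 11.6 FPKM in each control replicate. The knockout libraries lay on both sides of the controls (log2 change -0.06, 95% interval -0.24 to 0.11, limma adjusted p = 0.729). The sign of the Irf3 difference turned after rescaling to TPM (log2 change 0.01).

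**Figure D2:**
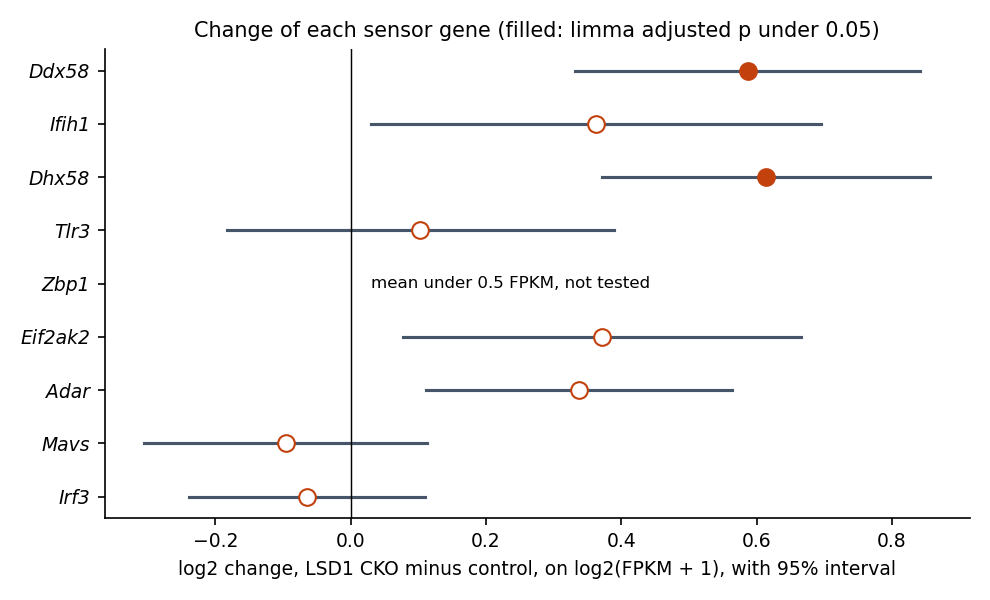
Log2 change of each sensor gene (LSD1 CKO minus control, on log2(FPKM + 1)) with its 95% interval from limma; filled points have an adjusted p under 0.05 over all genes tested. Ddx58 (0.59) and Dhx58 (0.61) are filled, Ifih1, Eif2ak2 and Adar have intervals above 0 without passing the adjusted threshold, and Zbp1 was not tested.

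In all, 2 of the 8 tested sensor genes were called higher and 0 lower by limma, where 1.91% of all tested genes were called higher. At an unadjusted p under 0.05 there were 5 higher and 0 lower, where 16.1% of all tested genes passed in either direction, and voom on recovered reads also called 2 higher and 0 lower. Their median log2 change was 0.35, against -0.01 over all tested genes. Both Dhx58 and Ifih1 entered the test only through their knockout levels, so neither the count nor the median over tested genes is support. Among the 6 sensor genes whose control mean alone reached 0.5 FPKM, 1 was called higher, where 1.71% of 13865 such genes were. For 2 of these 6, every LSD1 CKO library lay above every control library, where 10.3% of genes with such a control mean had that order. It was found for 4 of the 8 tested sensor genes, where 11.0% of all tested genes had it, and also for Zbp1, which was not tested. The opposite order was found for 0 of the 8, where 10.4% of all tested genes had it. The sensors were chosen with earlier results of these data known, so the other counts here are not support either. LSD1 CKO replicate 2 was the highest of the 6 libraries for 4 genes, Ddx58, Ifih1, Dhx58 and Adar.

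The order of levels, which FPKM makes comparable between genes of different length, was led by the constitutive components in both groups. In LSD1 CKO ventricles mean levels ran from Irf3 (11.1 FPKM) through Mavs (7.78), Eif2ak2 (5.39), Ddx58 (3.72), Adar (3.11), Dhx58 (0.886), Ifih1 (0.851) and Tlr3 (0.718) to Zbp1 (0.464). In control ventricles they ran from Irf3 (11.6 FPKM) through Mavs (8.43), Eif2ak2 (3.90), Adar (2.25), Ddx58 (2.13), Tlr3 (0.593), Ifih1 (0.427) and Dhx58 (0.232) to Zbp1 (0.0768). Neighbours whose ranges overlapped in the knockout were Eif2ak2 with Ddx58, Ddx58 with Adar, and each successive pair from Dhx58 to Zbp1, whereas in controls they were Adar with Ddx58 and Tlr3 with Ifih1. Dhx58 was thus second lowest in control libraries, with no overlap with either neighbour, and in knockout libraries its range overlapped that of Ifih1.

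Immune cells carry many of these sensors at high levels, and the summed level of their markers was also higher in the knockout. The summed FPKM of 22 macrophage and other immune markers was 226, 216 and 239 in LSD1 CKO replicates 1, 2 and 3, against 182, 186 and 208 in control replicates 1, 2 and 3, a ratio of means of 1.18 with no overlap (two-sided exact permutation p = 0.1, the smallest possible). Of 17 markers tested, 0 were called by limma and 0 by voom. At an unadjusted p under 0.05 there were 6, each with a higher mean in LSD1 CKO (Cd74, Fcgr1, Fcer1g, C1qa, C1qb and C1qc). Over all tested genes 16.1% passed in either direction. Every LSD1 CKO library lay above every control library for 5, where 11.0% of all tested genes had that order. The mean was higher in LSD1 CKO for 13 of the 17, and their median log2 change was 0.12. The macrophage receptor gene Csf1r averaged 10.3 FPKM in LSD1 CKO and 9.99 FPKM in control ventricles and Adgre1 5.06 and 5.23 FPKM, while C1qb averaged 39.8 and 31.6 FPKM. Lyz2, the marker with the highest level, averaged 53.8 FPKM in LSD1 CKO and 43.1 FPKM in control ventricles, with overlap. A sum of FPKM gives most weight to the markers with the highest levels, Lyz2, C1qb and C1qa. Mrc1 averaged 4.26 and 4.77 FPKM. The T cell marker Cd3e was listed at 0 in all libraries. The endothelial sum was 157 to 198 FPKM in LSD1 CKO and 131 to 188 FPKM in control libraries, with overlap. Among 9 endothelial, 6 epicardial, 10 erythroid, 7 fibroblast and 1 liver or lung marker tested, limma called 0 (2 endothelial and 0 other markers at an unadjusted p under 0.05; voom called 1 endothelial marker). Their summed levels overlapped between groups, at 206 to 240 FPKM in LSD1 CKO and 191 to 227 FPKM in control libraries for epicardial, 7920 to 16538 and 8053 to 18024 FPKM for erythroid, 295 to 384 and 310 to 497 FPKM for fibroblast, and 1.24 to 2.25 and 0.945 to 1.56 FPKM for liver and lung markers. The immune marker sum was highest in LSD1 CKO replicate 3. Zbp1, Tlr3 and Eif2ak2 were highest in that library too, Eif2ak2 at 5.99 FPKM against 5.93 FPKM in LSD1 CKO replicate 2. Ddx58, Ifih1, Dhx58 and Adar were highest in LSD1 CKO replicate 2. The order of these libraries was not tested. The part of immune cells in the sensor levels was not tested, and in bulk tissue more cells of a type and more RNA per cell cannot be told apart.

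**Figure D3:**
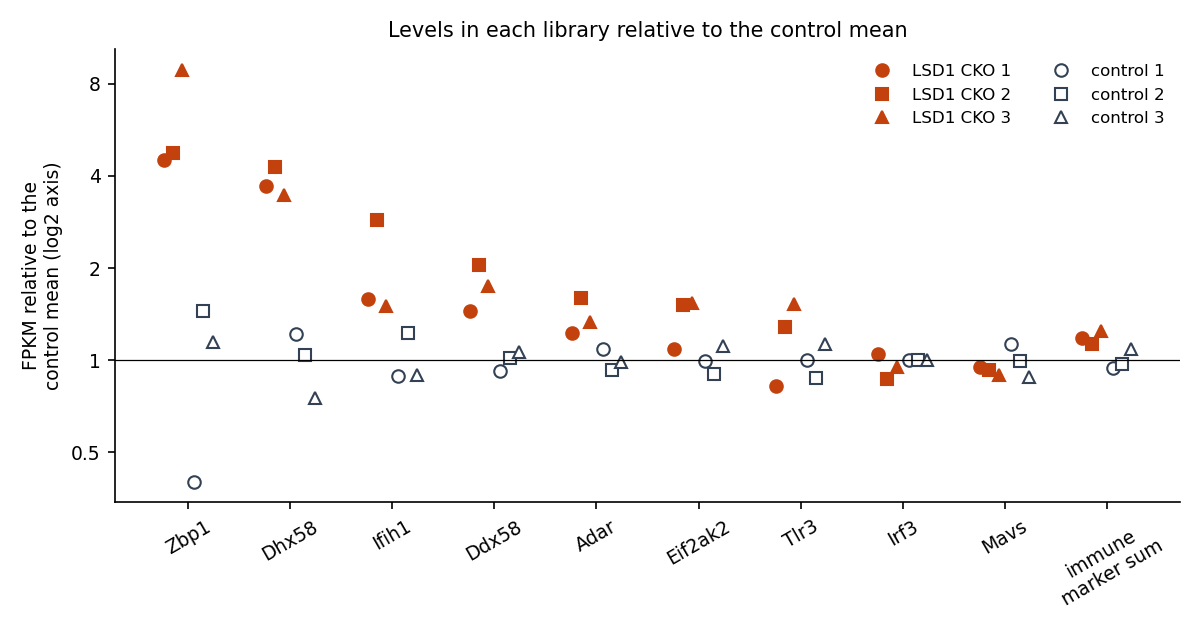
FPKM of each sensor gene, and of the summed macrophage and immune markers, in each library relative to the control mean, on a log2 axis. LSD1 CKO libraries (filled) stand at 4.49 to 8.89 for Zbp1, 3.47 to 4.28 for Dhx58, 1.51 to 2.88 for Ifih1 and 1.45 to 2.04 for Ddx58. They stand at 1.23 to 1.59 for Adar, 1.09 to 1.53 for Eif2ak2 and 0.825 to 1.52 for Tlr3. For Irf3 they stand at 0.870 to 1.04, for Mavs at 0.896 to 0.946 and for the marker sum at 1.13 to 1.24. Zbp1 was not tested, and Dhx58 and Ifih1 were tested only through their knockout levels. Control libraries are open symbols.

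The genes around the sensors were described from lists, with counts at limma adjusted p under 0.05. Over all tested genes 1.91% were called higher and 0.466% lower, and 16.1% had an unadjusted p under 0.05. The lists were chosen with earlier results of these data known, so their counts are not support. Among 12 regulators of RIG-I and MDA5, all tested, 1 rose and 0 fell (median log2 change -0.02; 2 higher and 0 lower at an unadjusted p under 0.05, and 2 and 0 by voom). The gene that rose was Zc3hav1, whose zinc-finger antiviral protein binds CpG-rich viral RNA and whose short form stimulates RIG-I. It stood at 4.52, 5.95 and 5.0 FPKM in LSD1 CKO replicates 1, 2 and 3, against 2.46, 2.51 and 3.23 FPKM in control replicates 1, 2 and 3 (log2 change 0.72, SE 0.12, limma adjusted p = 0.0245). The groups did not overlap. No gene of this list was called without control replicate 1, control replicate 2, LSD1 CKO replicate 2 or LSD1 CKO replicate 3, with the sex score or with no filter.

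In the limma fit with genotype alone, the signalling steps below the sensors and the parallel sensing routes held no gene that passed the test. Of 14 adaptors and kinases downstream of MAVS, 0 were called (1 higher and 1 lower at an unadjusted p under 0.05, 0 by voom; median log2 change 0.02). Traf3, the ubiquitin ligase that links MAVS to TBK1, averaged 4.34 ± 0.433 FPKM in LSD1 CKO and 3.23 ± 0.453 FPKM in control ventricles (SD, n = 3 each; limma adjusted p = 0.163), and Azi2, an adaptor of TBK1, 11.3 ± 0.771 and 11.4 ± 0.757 FPKM (adjusted p = 0.943). Of 9 genes of the endosomal Toll-like receptor arm 6 were tested and 0 called (1 higher and 0 lower unadjusted, 0 by voom; median 0.08), with Unc93b1, which carries these receptors to endosomes, at 6.12 ± 0.632 and 4.82 ± 0.289 FPKM (adjusted p = 0.153). Irak1, a kinase of that arm, averaged 12.0 FPKM in LSD1 CKO and 12.8 FPKM in control ventricles. Of 7 cytosolic DNA sensing genes 6 were tested and 0 called (2 higher and 0 lower unadjusted, 0 by voom; median 0.24). Ifi204, a DNA-binding PYHIN gene with close paralogues, stood at 2.24 ± 0.713 FPKM in LSD1 CKO and 1.09 ± 0.297 FPKM in control ventricles (adjusted p = 0.128). Sting1, listed as Tmem173, averaged 4.81 ± 0.574 and 5.08 ± 1.05 FPKM (adjusted p = 0.883).

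The other interferon regulatory factors included 3 that rose. Of 8 listed 7 were tested, 3 rose and 0 fell (median log2 change 0.08), where 1.91% of all tested genes were called higher. Irf7, the factor that interferon induces and that amplifies interferon-alpha genes, stood at 1.597, 1.68 and 1.39 FPKM in LSD1 CKO replicates 1, 2 and 3, against 0.818, 0.313 and 0.384 FPKM in control replicates 1, 2 and 3 (log2 change 0.78, SE 0.14, limma adjusted p = 0.0360). Irf9, the DNA-binding part of the ISGF3 complex, averaged 4.52 ± 0.694 FPKM in LSD1 CKO and 2.09 ± 0.228 FPKM in control ventricles (SD, n = 3 each; adjusted p = 0.0114). Irf5, a factor of Toll-like receptor signalling, averaged 7.35 ± 0.609 and 3.37 ± 0.652 FPKM (adjusted p = 0.0087), with 14.1% of its exon bases under Tnpo3. The count was 1 without LSD1 CKO replicate 3, with the sex score as covariate or with no filter on low values. Over the 6 fits that each omitted a library, Irf5 was called in 6, Irf9 in 5 and Irf7 in 1. With an added 0.1 FPKM Irf7 was not called (limma adjusted p = 0.0544).

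Transcripts of the interferons themselves were not detectable at this depth. Of 19 ligand genes 18 had 0 reads in all 6 libraries, among them Ifnb1, and Ifnz had 2 reads in control replicate 3. A count of 0 allows up to 3 reads per library, which in a gene of 1 kb is 0.155 to 0.169 FPKM. The interferon-alpha genes are near-identical copies, and reads shared between copies may not have been counted. Of 11 receptor and JAK-STAT genes 10 were tested and 0 called (1 higher and 0 lower unadjusted, 0 by voom; median 0.01). The receptor chain gene Ifngr2 averaged 30.8 ± 0.574 FPKM in LSD1 CKO and 32.3 ± 0.154 FPKM in control ventricles (SD, n = 3 each; limma adjusted p = 0.612).

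Other double-stranded RNA effectors were mixed. Of 9 OAS and RNase L genes, which make and read the 2-5A signal for RNA decay, 3 were tested, 1 rose and 0 fell. Over all tested genes 1.91% were called higher. The gene that rose was Oas1a, at 2.55, 2.19 and 1.78 FPKM in LSD1 CKO replicates 1, 2 and 3, against 0.316, 0.686 and 0.385 FPKM in control replicates 1, 2 and 3 (log2 change 1.12, SE 0.14, limma adjusted p = 0.00797); Oas1a has close paralogues between which reads could be divided. Oas1a entered the test only through its knockout level, and its limma adjusted p was 0.0163 to 0.0427 over the 6 fits that each omitted a library. At an unadjusted p under 0.05 the list had 2 higher and 0 lower, voom called 2 higher and 0 lower, and the median log2 change of the 3 tested was 0.81. Oasl2, named after its values were seen, averaged 2.12 ± 0.922 FPKM in LSD1 CKO and 0.738 ± 0.0554 FPKM in control ventricles (SD, n = 3 each; limma adjusted p = 0.0817). Of the 6 genes too low to test, 5 had every LSD1 CKO library above every control library, namely Oas1b, Oas1g, Oas2, Oas3 and Oasl1. Among all tested genes 11.0% had that order. The share among genes too low to test was not counted, so this count is not support. Of 10 genes of the eIF2alpha kinases and their stress response, 0 were called (0 higher and 2 lower unadjusted, 0 by voom; median -0.07). Atf4, the transcription factor translated when PKR or its sister kinases act, averaged 57.5 ± 1.21 FPKM in LSD1 CKO and 65.9 ± 3.11 FPKM in control ventricles (SD, n = 3 each; adjusted p = 0.191). Adarb1, the sister editor of Adar, averaged 1.58 ± 0.265 and 1.58 ± 0.142 FPKM and was the tested gene of 4 in the ADAR family (0 called, 0 unadjusted, 0 by voom). The 5 genes through which ZBP1 kills cells had 0 calls (1 higher and 0 lower unadjusted, 0 by voom; median -0.07), with Casp8 at 12.0 ± 1.17 and 9.70 ± 0.587 FPKM (adjusted p = 0.169).

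Of 11 genes that clear nucleic acids 10 were tested, 0 rose and 1 fell, where 0.466% of all tested genes were called lower. At an unadjusted p under 0.05 there were 0 higher and 3 lower, and the median log2 change was -0.05. Rnaseh2c, a subunit of the RNase H2 enzyme that removes RNA from DNA hybrids, stood at 40.1, 45.6 and 43.6 FPKM in LSD1 CKO replicates 1, 2 and 3, against 58.1, 52.8 and 58.4 FPKM in control replicates 1, 2 and 3 (log2 change -0.38, SE 0.07, limma adjusted p = 0.0453). It was not called whichever library was omitted, with no filter, after either rescaling or with the sex score, and 24.8% of its exon bases lie under Kat5. Its partner subunits Rnaseh2a and Rnaseh2b averaged 9.86 ± 0.343 and 9.40 ± 0.881 FPKM in LSD1 CKO against 11.6 ± 0.692 and 11.4 ± 0.855 FPKM in control ventricles (SD, n = 3 each; adjusted p = 0.172 and 0.193); they were named after their values were seen. Trex1, the main cytosolic DNA exonuclease, was listed at 0 in all libraries, and exons of Atrip cover 100% of its exon bases.

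Interferon-stimulated genes, the usual readout of these sensors, included more genes that rose. Of 18 listed 13 were tested, 7 rose and 0 fell, where 1.91% of all tested genes were called higher. The median log2 change was 0.78. At an unadjusted p under 0.05 there were 13 higher and 0 lower, where 16.1% of all tested genes passed in either direction. Of the 13 tested, 4 were tested only through their knockout levels, 2 of them, Ifit1 and Ifit3, among the 7. Among the 9 whose control mean alone reached 0.5 FPKM, 5 were called higher, where 1.71% of 13865 such genes were. The list was chosen with earlier results of these data known, so neither its counts nor its median is support. Isg15, a ubiquitin-like modifier, stood at 6.002, 17.4 and 10.1 FPKM in LSD1 CKO replicates 1, 2 and 3, against 2.08, 1.26 and 2.67 FPKM in control replicates 1, 2 and 3 (log2 change 1.93, SE 0.33, limma adjusted p = 0.0295). As for Ddx58, Ifih1, Dhx58 and Adar, its highest level was in LSD1 CKO replicate 2. Ifit2 averaged 5.47 ± 0.447 FPKM in LSD1 CKO and 2.83 ± 0.282 FPKM in control ventricles (SD, n = 3 each; adjusted p = 0.00644). Ifit1, whose product binds foreign RNA caps, averaged 1.85 ± 0.824 FPKM in LSD1 CKO and 0.164 ± 0.109 FPKM in control ventricles (SD, n = 3 each; limma adjusted p = 0.0285). It was tested only through its knockout level, and with no filter its adjusted p was 0.0991. Bst2, which tethers budding virus, averaged 48.8 ± 5.39 FPKM in LSD1 CKO and 21.1 ± 2.71 FPKM in control ventricles (adjusted p = 0.00354). The number of genes of this list called higher was 2 without control replicate 1, without control replicate 2 or without LSD1 CKO replicate 3. It was 3 without LSD1 CKO replicate 2, 2 with the sex score as covariate and 2 with no filter. When only genes averaging 2 FPKM or more were tested it was 4. It was 10 after rescaling without haemoglobin and mitochondrial genes, and 9 after rescaling to TPM, with library weights or with voom.

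**Figure D4:**
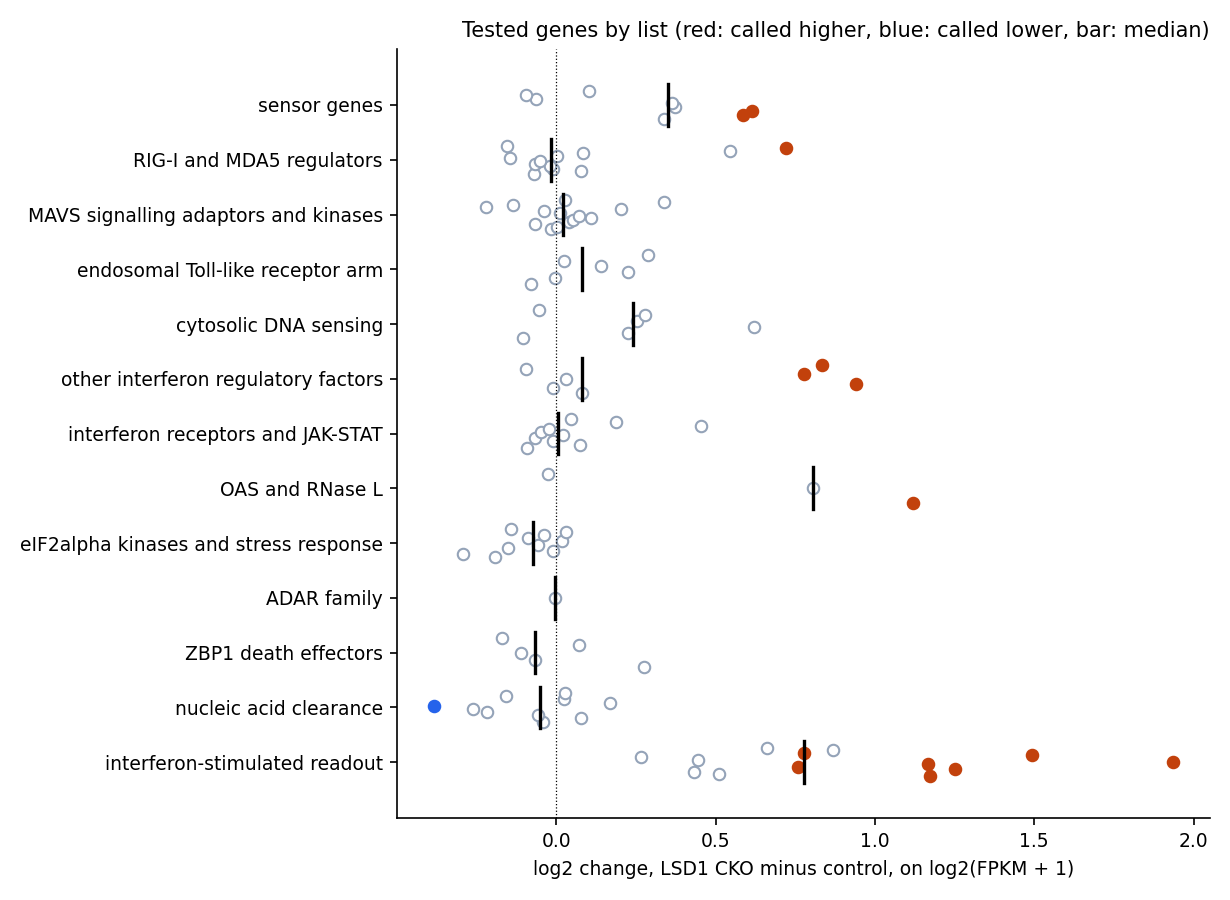
Log2 change (LSD1 CKO minus control, on log2(FPKM + 1)) of every tested gene in each list; red points were called higher and blue points lower at a limma adjusted p under 0.05, open points were not called, and black bars are list medians. The median of the 8 tested sensor genes, of which Dhx58 and Ifih1 were tested only through their knockout levels, is 0.35. Those of the MAVS adaptors and of the receptors and JAK-STAT genes are 0.02 and 0.01. The median of the 13 tested interferon-stimulated genes, of which 4 were tested only through their knockout levels, is 0.78. The medians are therefore not support for a difference between lists.

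The genes whose pattern over the 6 libraries was most like the mean pattern of the tested sensors were Fcer1g, Sypl2, Ifit1, Gdf11 and Paqr6. Likeness was the root mean square difference between a gene's z-scores of log2(FPKM + 1) and the sensors' mean z-scores. That mean was not rescaled to an SD of 1, so even an identical pattern would not score as a perfect match. The values of these 5 genes, 0.432 to 0.438, therefore serve only to rank genes. The mean includes Dhx58 and Ifih1, and Ifit1 and Paqr6 also entered the test only through their knockout levels. Fcer1g and Paqr6 were not called (limma adjusted p = 0.266 and 0.0713). Fcer1g, the gamma chain of Fc receptors and 1 of the immune markers, averaged 17.5 ± 0.515 FPKM in LSD1 CKO and 15.6 ± 0.314 FPKM in control ventricles (SD, n = 3 each), and Sypl2 2.38 ± 0.483 and 1.13 ± 0.175 FPKM. Gdf11, a ligand of the TGF-beta family, averaged 6.10 ± 0.579 and 4.18 ± 0.352 FPKM and Paqr6 1.02 ± 0.278 and 0.341 ± 0.0535 FPKM.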

How the data were processed

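Expression was measured by RNA sequencing of total RNA from heart ventricles in 3 LSD1 CKO and 3 control samples, grouped and numbered from the sample descriptions. The authors deposited FPKM values for 54532 Ensembl gene IDs, with no read counts. Per the submitters' processing notes, the build was mm10 and the tools were HISAT2 2.0.5, featureCounts 1.5.0-p3, fastp and CASAVA. Their order, the annotation and the counting settings were not given. The NEBNext Ultra RNA kit named in the labels' protocols leaves strand unmarked.

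Names, exon lengths and coordinates came from GENCODE M21 (GRCm38, the assembly of mm10), which held 54495 of the IDs. Multiplied by exon length, the FPKM fell on multiples of a step set by the library, and 98.1% to 98.5% of values below 30 reads were whole to within 0.02. The totals implied by these steps followed the libraries' size factors, so reads and their ratios are recovered estimates, and the FPKM carry that scaling. The 14149 genes averaging 0.5 FPKM or more entered limma 3.58.1 as log2(FPKM + 1) (trend, two-sided, genotype only, Benjamini-Hochberg over all tested genes) in R 4.3.3. This was tested on simulated data. Single values were compared by exact permutation (scipy 1.17.1).

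The members and all lists were chosen with earlier results of these data known. Named genes were the sensors, Kdm1a, up to 4 called genes of each list by adjusted p (otherwise the gene with the smallest p and the one with the highest mean), and the 5 of most similar pattern, leaving out predicted genes and pseudogenes; not every gene so taken is reported. Alternatives were another pseudocount, 2 filters, 2 rescalings, each library left out with the tested genes kept, a replicate block, library weights, a sex score covariate and voom on recovered reads.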

Additional observations from a re-analysis of the deposited data

How the results depend on the processing

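The sign of every tested sensor's change was kept under the alternatives tried, except for Irf3, whose log2 change was 0.0132 after rescaling to TPM and 0.0026 after rescaling without haemoglobin and mitochondrial genes. The sensors called higher, 2 with all libraries, numbered 1 with no filter, 1 at a mean of at least 2 FPKM, 1 with the replicate block (where Dhx58 had an adjusted p of 0.0721), 0 with the sex score and 0 to 1 when a library was left out. Genes called higher over the whole table, 270, numbered 110 with no filter, 93 with the sex score, 409 with voom and 111 to 273 when a library was left out. Genes called lower, 66, numbered 12 with no filter, 40 after rescaling to TPM, 112 with library weights, 23 with the sex score, 102 with voom and 23 to 108 when a library was left out. The cause of these shifts was not tested. The replicate numbers are not stated to pair samples, and the deviations of same-numbered samples correlated at -0.0021, 0.14 and 0.164; LSD1 CKO replicate 1 correlated best with another number. With the replicate block 220 genes were called higher and 64 lower. In the lists, Ifi204 was then called (adjusted p = 0.0463), while Irf7 (0.0625), Rnaseh2c (0.0896), Isg15 (0.0701), Ifit1 (0.0672), Rtp4 (0.104) and Trim30a (0.0763) were not, which left 3 of the 7 interferon-stimulated genes. Low reads limit Zbp1 and Dhx58 most, with 15 and 42 reads over the 3 control libraries.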
